A study of Danio rerio with 28 samples.

Results

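RNA of zebrafish embryos at the Sphere stage, enriched for newly made transcripts, was compared between mir430-/- mutants and wild type. The 6 libraries were chosen by their labels (whole embryo, Sphere, treated with iodoacetamide, IAA), 3 of them wild type and 3 mutant, out of 28 libraries in the series. All embryos had received s4UTP, a thiolated form of the RNA building block UTP. RNA that had taken it up was pulled out on beads and alkylated with IAA, as in SLAM-seq. Embryos of the mutant had also been injected with miR430, which the labels call a rescue and name for the mutants only. The deletion, the injected microRNA and the background of the mutant line therefore cannot be told apart here, and no uninjected mutant was analysed. The 3 libraries of each genotype are labelled as biological replicates, with no mention of clutches or of how many embryos were pooled, so the p-values rest on the spread among these 3. Age was given only as the stage.

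Sphere is a blastula stage that comes after the onset of zygotic genome activation, the step at which the embryo's own genome takes over from RNA that the mother stored in the egg. The mir430 locus is a tandem array of microRNA genes and is among the first to be transcribed. Its transcripts gather in conspicuous nuclear transcription bodies, where RNA polymerase and elongation factors are concentrated. The microRNA itself marks maternal mRNAs for removal. The series is titled for the holding of CDK9, the kinase that releases paused RNA polymerase, in such bodies, and its design text asks what follows for genome activation when such bodies are lost.

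The libraries held between 5992082 and 10273049 counts, of which nuclear genes took 12.9%, 40.1% and 62.6% in wild type replicates 1, 2 and 3, and 38.5%, 62.3% and 35.0% in the mutant replicates. The rest was mitochondrial. The nuclear share was 38.5% ± 24.9 in wild type and 45.2% ± 14.8 in the mutant (SD, n = 3), and a two-sided exact permutation test gave p = 1. Wild type replicate 1 stood apart: it had 919807 nuclear counts against 2733994 to 4118874 in the other 5 libraries. Over 12775 nuclear genes, log2 CPM of this library correlated on average at r = 0.853 with the wild type Oblong libraries, the stage before, and at r = 0.677 with the other wild type Sphere libraries. By group mean each of the other 5 libraries was most like the mutant Sphere group, at r between 0.850 and 0.901. For wild type replicates 2 and 3 the wild type Sphere mean includes replicate 1, at r = 0.705 and 0.648. With each other they correlated at 0.933, and with the mutant libraries at 0.794 to 0.904 and 0.852 to 0.88. These correlations are across genes and describe the libraries, with no test. The labels place wild type replicate 1 at Sphere. Whether that stage holds for it cannot be settled from the files, which touches every wild type Sphere mean below. The main counts of genes are therefore also given without it.

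**Figure D1:**
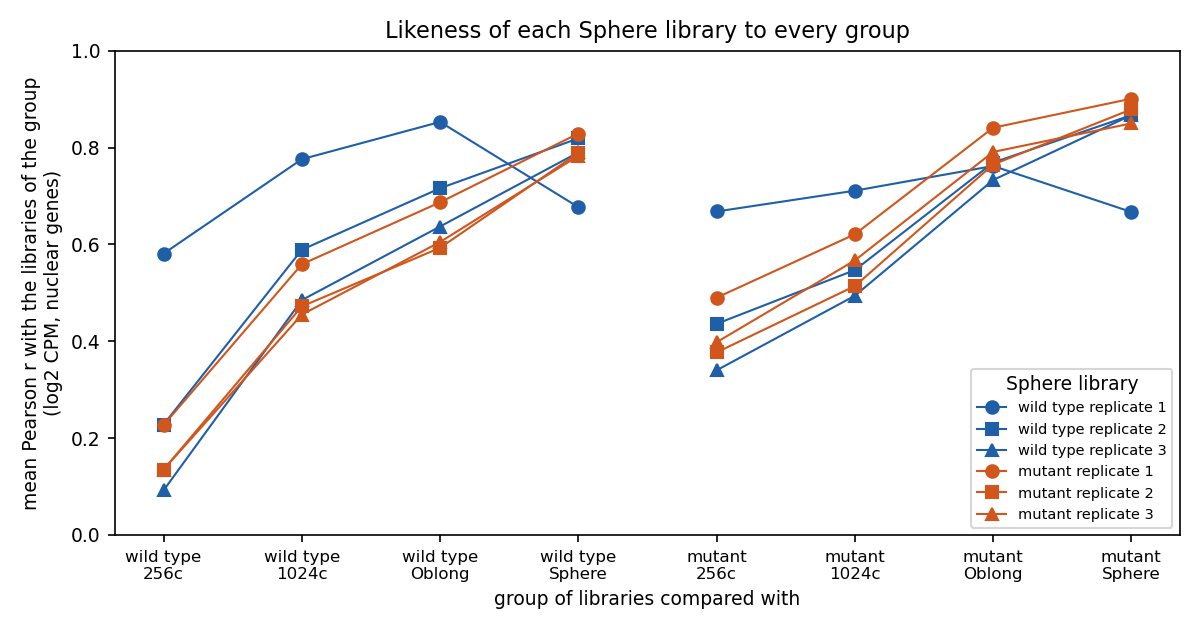
Mean Pearson r (y axis) over 12775 nuclear genes, on log2 CPM, of each Sphere library with the libraries of each of the 8 groups (x axis). Blue marks wild type and orange mutant libraries, and the marker shape gives the replicate. Wild type replicate 1 peaks at wild type Oblong (0.853), whereas the other 5 libraries peak at mutant Sphere. The wild type Sphere means of the other wild type replicates include replicate 1.

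Markers of the blastoderm were read in both genotypes. The mRNA of pou5f3, a maternal activator of the genome, was at 778, 1580 and 1580 CPM in wild type replicates 1 to 3 and at 1910, 1790 and 830 CPM in the mutant. CPM here means counts per 1e6 of a library's nuclear counts other than mir430, scaled by TMM (edgeR's trimmed mean of log ratios). Markers of other cells in the whole embryo summed to 8268 to 16310 CPM in wild type and 11700 to 15070 CPM in the mutant for 18 genes of the enveloping layer. For 14 genes of the yolk syncytial layer the sums were 2505 to 4644 CPM and 2984 to 5855 CPM. These sums include genes with too few counts to be tested. Of 15 marker genes of tissues formed later, 11 had at most 10 counts over the 6 libraries together and 2 were tested, elavl3 and actc1b. The neutrophil gene mpx had 128 counts in mutant replicate 3 and at most 6 in any other library. In whole embryos fewer cells of a type and less RNA per cell cannot be told apart.

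The mir430 locus gave many counts in each wild type library and next to none in the mutant, as the labels of all 6 say. On chromosome 4, 54 mir430 genes are annotated, from 28693371 to 28709534 (GRCz11 coordinates, as are all below). Together they held 23911, 91495 and 204719 counts in wild type replicates 1 to 3 and 9, 0 and 0 counts in the mutant. As a share of nuclear counts this was 2.60%, 2.22% and 5.22% in wild type and 0.000323%, 0% and 0% in the mutant, where 0 counts allow a share of up to 8.04e-05% and 0.00011%. Such limits cover counting error only. The means were 3.35% ± 1.64 and 0.000108% ± 0.000187 (SD, n = 3). The 2 groups did not overlap, and the two-sided exact permutation test gave p = 0.1, the smallest that 3 against 3 allows. Of 45 mir430 genes tested, 42 were lower in the mutant, with a median log2 fold change of -11.09, beside 1.13% called over all genes tested. Near-identical copies share reads, so that the split between copies is uncertain and their sum is the better measure.

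Outside mir430 few genes passed the test. Of 12775 nuclear genes tested with edgeR's quasi-likelihood test, 51 (0.399%) were higher and 52 (0.407%) were lower in the mutant at a Benjamini-Hochberg adjusted p under 0.05, together 0.806%. In all 103 the 3 mutant and the 3 wild type libraries did not overlap, a separation that 14.5% of all tested genes showed (8.96% with the mutant higher and 5.53% with it lower). Without wild type replicate 1 the counts were 50 higher and 59 lower, of which 34 and 37 were among the 51 and 52. The number of calls rested on other libraries too. Leaving out wild type replicate 2 gave 16 higher and 38 lower, and leaving out replicate 3 gave 36 and 121. Without mutant replicate 1 the counts were 34 and 14, without mutant replicate 2 they were 27 and 12, and without mutant replicate 3 they were 40 and 28. All called genes that could be tested in these fits kept their direction. A fit of only the 6 Sphere libraries, with no other stage to estimate the spread, called 14 higher and 9 lower.

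The calls were large changes. The smallest called rise was 2.69 and the smallest called fall -2.25 on the log2 scale, while 90% of tested genes lay between -1.76 and 1.45 and their median was 0. The median standard error was 0.73, and the 95% confidence interval of a typical gene reached 1.5 to either side, which is 2.83-fold. Changes of that size or smaller were not detectable for most genes, and none under the smallest calls above passed the test. Larger changes could be missed too. In simulated data 6% of 50 genes planted with a log2 change of 2 were recovered, and 84% of 50 planted with 4. That run made 10 false calls among 12349 genes tested. They stand beside recoveries of 2%, 6%, 84% and 96% of 50 genes each at planted log2 changes of 1, 2, 4 and 6. Planted genes had to pass a minimum CPM, and before planting each gene had the same mean rate in every Sphere library. How far the recovery holds for genes with few counts, or with a library like wild type replicate 1, was not tested. In 23 of the 51 rises the wild type group had 0 to 3 counts, and in 17 of the 52 falls the mutant group had 0 to 3. In the fit without wild type replicate 1 this held for 27 of 50 and 28 of 59. Among 2121 genes with over 100 CPM in the higher group, 9 were called (0.424%, beside 0.806% of all genes), and without wild type replicate 1 it was 15 of 2244. Of the 103 genes, 58 (56.3%) have only a clone name in the file, against 23.6% of tested genes, which leaves 22 rises and 23 falls with a gene symbol. None of 37 mitochondrial genes tested was called.

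**Figure D2:**
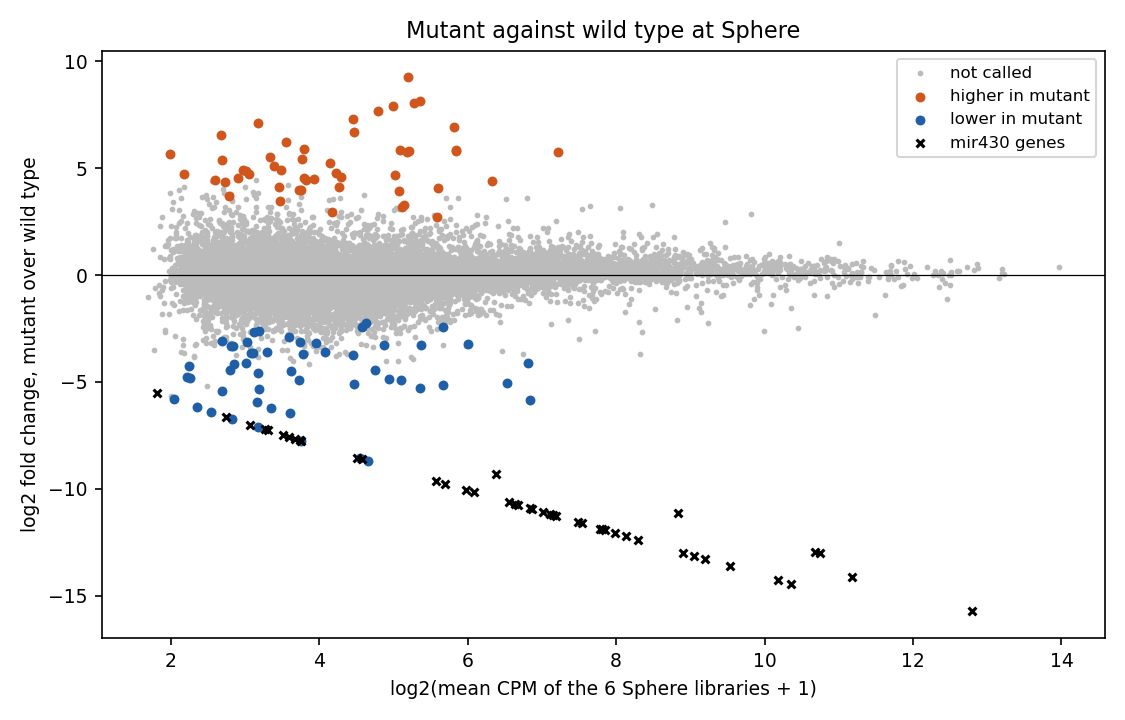
Log2 fold change of mutant over wild type (y axis) against log2 of the mean CPM of the 6 libraries plus 1 (x axis), 1 point per tested gene. Orange marks the 51 genes called higher, blue the 52 called lower, grey the genes not called and crosses the mir430 genes, which lie between -5.5 and -15.72.

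The rises with a symbol included genes almost unread in wild type. Rises and falls were named only where the 3 mutant and 3 wild type libraries did not overlap. That separation was therefore set by the choice of genes. The hydrolase gene cmbl (chromosome 24, 16912248 to 16917086) was at 0, 0.335 and 0 CPM in wild type replicates 1 to 3 and at 41.8, 76.9 and 41.5 CPM in the mutant. With 1 count in the whole wild type group, mutant over wild type came to a ratio of 372 (95% counting interval 66.3 to 14700, adjusted p = 0.000232). The 3 mutant libraries were all far above the 3 wild type libraries.

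The gene gbgt1l4 (chromosome 5), of a glycosyltransferase family with several copies, was at 0.972, 0 and 0 CPM in wild type and 27.7, 7.32 and 28.4 CPM in the mutant, a count ratio of 136 (interval 24 to 5400, adjusted p = 0.000772). Reads of near-identical copies may be shared, so its count is uncertain. The gene megf6a (chromosome 23), which encodes a protein with many EGF-like repeats, was at 0.972, 0.335 and 0 CPM against 36.9, 32.2 and 6.77 CPM, a ratio of 84.9 (interval 23.2 to 706, adjusted p = 0.00824). For both, 1 mutant library was well below the other 2 and yet above every wild type library.

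The cation channel gene trpc6b and the progesterone receptor gene pgr lie side by side on chromosome 18 and both rose. The level of trpc6b (41768357 to 41808741, plus strand) was 4.86, 0.670 and 1.1 CPM in wild type and 77.8, 167 and 85.9 CPM in the mutant, a log2 fold change of 5.84 with an SE of 1.00 (adjusted p = 0.00115). The level of pgr, which starts 11298 bases farther along the same strand, at 41820039, was 0.972, 0.670 and 0.732 CPM against 8.75, 65.2 and 24.1 CPM, a log2 fold change of 5.23 with an SE of 1.09 (adjusted p = 0.0155). For both genes mutant replicate 2 was the highest library, and no groups overlapped.

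The purine-rich element binding protein gene purba (chromosome 5, 13643167 to 13646054) was at 0.972, 2.01 and 2.2 CPM in wild type and 153, 124 and 55.9 CPM in the mutant (log2 fold change 5.82, SE 0.95, adjusted p = 0.000715). The gene slc25a23b (chromosome 3, 34220194 to 34230565), which encodes a calcium-regulated carrier of the inner mitochondrial membrane, was at 6.80, 9.04 and 0 CPM against 262, 290 and 315 CPM (log2 fold change 5.77, SE 1.22, adjusted p = 0.0132). The mutant libraries of slc25a23b were close together, at 289 ± 26.7 CPM (SD, n = 3). Those of purba spread further, at 111 ± 49.7 CPM.

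The axonemal dynein heavy chain gene dnah3 was at 0.972, 1.34 and 1.1 CPM in wild type and 13.1, 120 and 80.0 CPM in the mutant (log2 fold change 5.79, SE 1.14, adjusted p = 0.00814). The gene nyap2b, a neuronal adaptor of phosphoinositide 3-kinase in mouse, was at 2.92, 0.335 and 1.1 CPM against 38.9, 72.5 and 96.1 CPM (log2 fold change 5.73, SE 1.1, adjusted p = 0.0064). In dnah3 mutant replicate 1 was the lowest mutant library, still above all of wild type.

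The remaining rises named by the same rule were lower in counts. The gene jakmip1, for a protein that binds Janus kinases and microtubules, had 3 counts in the wild type group and 142 in the mutant group (ratio 44.6, interval 15 to 219, adjusted p = 0.0241). The clathrin adaptor subunit gene ap1s3b had 2 and 92 (ratio 43.4, interval 11.7 to 364, adjusted p = 0.00824), and eogt, the gene of an enzyme that adds N-acetylglucosamine to EGF repeats, had 3 and 94 (ratio 29.6, interval 9.81 to 146, adjusted p = 0.00942). In all 3 genes each mutant library exceeded every wild type library.

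The falls with a symbol included genes with no count at all in the mutant. The chaperone gene hsc70 (chromosome 15, 37834594 to 37850969) was at 11.7, 54.3 and 79.4 CPM in wild type replicates 1 to 3 and at 0 in every mutant library, at least 138-fold lower against a floor of 3 counts over the group (adjusted p = 0.00064). The gene sycn.2 (chromosome 21), a syncollin known from secretory granules of the pancreas in mammals, was at 3.89, 13.1 and 19.8 CPM and at 0 in the mutant, at least 34.3-fold lower (adjusted p = 0.0107). Wild type replicate 1, the library with the fewest nuclear counts, was the lowest wild type library in both. The gene hsc70 belongs to a family of similar genes, and the split of shared reads is uncertain. Its relative hspa8, of the heat shock list, was at 742, 1820 and 1520 CPM in wild type and 1420, 1830 and 920 CPM in the mutant.

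The small GTPase gene rrad (chromosome 7, 44960188 to 44963154) was at 190, 189 and 292 CPM in wild type and at 3.40, 2.93 and 5.08 CPM in the mutant, a log2 fold change of -5.84 with an SE of 0.86 (adjusted p = 0.000232). The coagulation factor VIII gene f8 (chromosome 14, 1007169 to 1040736) was at 93.3, 224 and 213 CPM against 7.29, 4.03 and 4.23 CPM, a log2 fold change of -5.07 with an SE of 0.82 (adjusted p = 0.000772). The 3 libraries of each genotype were close together in rrad, with a wide gap between the genotypes. In f8, wild type replicate 1 was again the lowest of its group.

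The gene pimr201 (chromosome 5), of a zebrafish family of Pim-like kinases with many copies, was at 76.8, 181 and 371 CPM in wild type and at 12.2, 11 and 12.7 CPM in the mutant (log2 fold change -4.12, SE 0.99, adjusted p = 0.0327), with the reservation that its copies can share reads. The circadian repressor gene per1b (chromosome 7, 50822465 to 50847296) was at 60.3, 83.1 and 198 CPM against 12.6, 10.2 and 13.1 CPM (log2 fold change -3.24, SE 0.57, adjusted p = 0.00166). For both genes the mutant libraries were close together and the wild type libraries spread widely, with replicate 3 the highest.

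The receptor tyrosine phosphatase gene ptprea was at 64.1, 24.4 and 105 CPM in wild type and 1.94, 0 and 4.23 CPM in the mutant (log2 fold change -4.92, SE 0.87, adjusted p = 0.00167). The neurexin family gene cntnap2b was at 22.4, 191 and 78.7 CPM against 0.972, 1.1 and 5.93 CPM (log2 fold change -5.14, SE 1.16, adjusted p = 0.019). The helicase gene dhx30, whose human product acts in mitochondrial ribosome assembly, was at 51.5, 14.4 and 5.49 CPM against 1.94, 2.2 and 0.847 CPM (log2 fold change -3.70, SE 0.83, adjusted p = 0.0182). The wild type libraries of these 3 genes differed strongly among themselves, and in dhx30 wild type replicate 1 was the highest.

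Few counts lay behind the other named falls. The synuclein gene sncga had 85 counts in the wild type group and 1 in the mutant group (ratio 90.1, interval 15.7 to 3600, adjusted p = 0.0251), and the transmembrane protein gene tmem176l.2 had 126 and 1 (ratio 134, interval 23.5 to 5320, adjusted p = 0.00635). The vigilin gene hdlbpb, for an RNA-binding protein with KH domains, had 46 and 1 (ratio 48.8, interval 8.33 to 1970, adjusted p = 0.0173), and the rhodopsin kinase gene grk1b had 79 and 3 (ratio 27.9, interval 9.21 to 138, adjusted p = 0.0347). None of these overlapped between the genotypes.

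**Figure D3:**
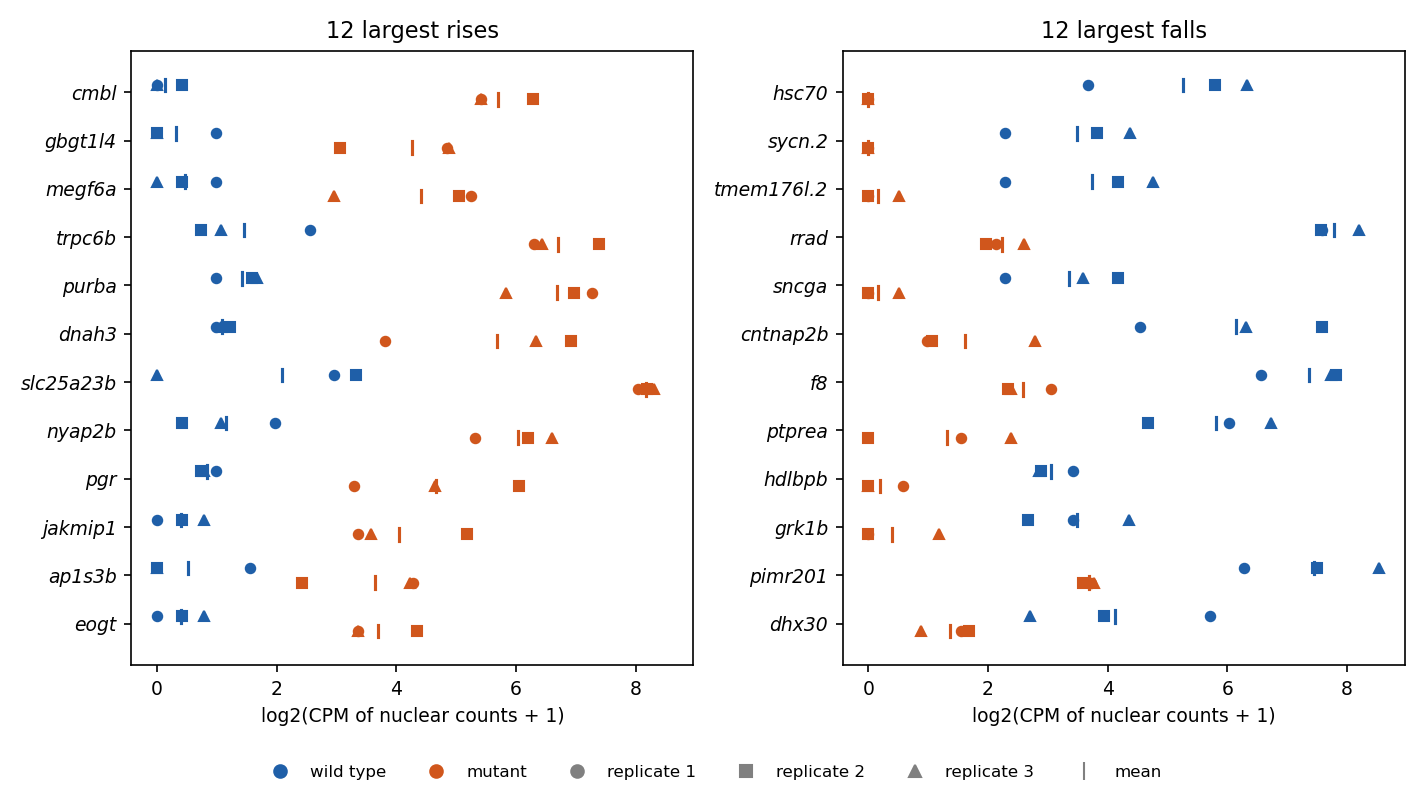
Log2 of CPM plus 1 (x axis) in each Sphere library for the 12 largest rises (left) and the 12 largest falls (right) among called genes with a symbol (y axis). Blue marks wild type and orange mutant, the marker shape gives the replicate and the vertical bar the mean of 3 libraries. In every gene the 3 mutant libraries lie on one side of the 3 wild type libraries, as the rule that chose the genes required.

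Of the 29 called genes named so far or among the lists below, 6 kept their call under each of the 13 alternative settings, namely cmbl, trpc6b, purba, fgfr1bl, rrad and f8, and none reversed its sign under any. The fit of only the 6 Sphere libraries ended most calls, 21 of 29, at adjusted p between 0.0542 and 0.261, and kept those of the 6 and of nyap2b and pimr201. DESeq2 ended those of sycn.2, sncga and grk1b, at adjusted p between 0.0524 and 0.632. Leaving out wild type replicate 1 ended the calls of jakmip1, grk1b, dhx30, tdrd5, mrps27 and mrps18a, at adjusted p between 0.0528 and 0.135. Leaving out wild type replicate 2 ended 14 calls (adjusted p 0.0507 to 0.155): those of megf6a, dnah3, nyap2b, pgr, jakmip1, ap1s3b, eogt, sycn.2, sncga, cntnap2b, hdlbpb, grk1b, pimr201 and mrps27. Calls of pgr, jakmip1, sncga, grk1b, pimr201 and mrps27 ended without wild type replicate 3 (adjusted p 0.0618 to 0.132). Leaving out mutant replicate 1 ended 10 calls (adjusted p 0.0572 to 0.248), those of sycn.2, tmem176l.2, sncga, cntnap2b, hdlbpb, grk1b, pimr201, dhx30, mrps27 and mrps18a. Leaving out mutant replicate 2 ended 15 (adjusted p 0.0529 to 0.305), those of dnah3, pgr, jakmip1, eogt, sycn.2, tmem176l.2, sncga, cntnap2b, hdlbpb, grk1b, pimr201, dhx30, tdrd5, mrps27 and mrps18a. Without mutant replicate 3, sycn.2, sncga, hdlbpb, pimr201, dhx30, tdrd5, mrps27 and mrps18a were no longer called (adjusted p 0.0542 to 0.188).

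In 6 lists of genes that pattern the early embryo no member passed the test, with intervals too wide to show that levels were equal. Among 14 mesendoderm factors, 17 dorsoventral and ectoderm factors, 16 Sox, Klf and Her factors, 13 genes of the Nodal pathway, 16 of BMP and the organizer and 17 of the Wnt pathway, none was called, beside 0.806% of all genes tested. Their median log2 fold changes were 0.40, 0.18, -0.05, 0.14, 0.28 and 0.26, beside 0 over all genes. Of the most read members, the T-box factor gene tbx16, of mesoderm, was at 831, 1900 and 1510 CPM in wild type and 2280, 2950 and 1440 CPM in the mutant, and snai1a, for a repressor of the Snail family, was at 1010, 1730 and 1550 CPM against 955, 1300 and 894 CPM. The ventral repressor gene vox was at 2480, 5110 and 5250 CPM against 3910, 2240 and 2940 CPM, and the homeobox gene irx7 at 5840, 6510 and 7790 CPM against 5800, 2780 and 6100 CPM. All 4 overlapped between the genotypes.

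Among the signalling genes, the Nodal co-receptor gene tdgf1 was at 379, 818 and 950 CPM in wild type and 1110, 1130 and 809 CPM in the mutant. The BMP ligand gene bmp2b was at 1260, 1710 and 1680 CPM against 1510, 1230 and 1560 CPM, and id1, a target of BMP signalling, was at 1710, 2680 and 1420 CPM against 2900, 3280 and 2460 CPM. The ligand gene wnt11f2 was at 1510, 2020 and 2760 CPM against 2390, 1420 and 2100 CPM, and ctnnb1, which encodes beta-catenin, at 1270, 1460 and 1610 CPM against 1680, 1400 and 1440 CPM. These 5 genes overlapped too, and so did the Krüppel-like factor gene klf17, at 3560, 7640 and 7310 CPM against 3870, 5530 and 3340 CPM, and the Hairy-related her5, at 1680, 2980 and 3700 CPM against 3030, 2230 and 2660 CPM.

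The 10 maternal activators of the genome, transcription factors such as Nanog and Pou5f3 and their cofactors, had a median of -0.17 and no call. The mRNA of nanog was at 2910, 6280 and 6270 CPM in wild type and 5180, 6970 and 3490 CPM in the mutant, a log2 fold change of 0.02 (SE 0.75, 95% confidence interval -1.53 to 1.56). The forkhead factor gene foxh1 was at 945, 1440 and 1920 CPM against 1450, 1640 and 2090 CPM. Both genes overlapped between the genotypes.

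The FGF pathway, a receptor tyrosine kinase pathway that induces mesoderm, held the only called rise of any list. The receptor gene fgfr1bl (chromosome 22, 6969477 to 6991514) was at 10.7, 6.03 and 5.13 CPM in wild type and 96.7, 208 and 147 CPM in the mutant, a log2 fold change of 4.39 with an SE of 0.79 (adjusted p = 0.00214). A second gene listed under the same symbol was at 19.4, 21.1 and 29.7 CPM against 10.7, 38.1 and 31.7 CPM (log2 fold change 0.19, adjusted p = 0.998), so the symbol covers a called and an uncalled gene whose reads may be shared. All 18 members tested had a positive fitted change, with a median of 0.72 beside 0 over all genes, and 1 of 18 was called higher, beside 0.399% of all genes. The most read members were the receptor gene fgfr4, at 1590, 3070 and 3700 CPM against 3960, 3800 and 3950 CPM, and the feedback phosphatase gene dusp6, at 2500, 2710 and 3270 CPM against 4400, 3360 and 3690 CPM. Neither passed the test (adjusted p = 0.985 and 0.994). In both every mutant library was above every wild type library, as in 8.96% of all tested genes. Without wild type replicate 1 the median of the list was 0.50 and fgfr1bl was still called. Other called genes outside the list lie near fgfr1bl on chromosome 22. CT583625.5 (6764980 to 6777976), si:ch1073-188e1.1 (6788761 to 6801876) and si:dkey-19a16.7 (6487048 to 6499077) were higher, and zgc:171699 (6407445 to 6420239) was lower.

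The factors of transcription elongation, the group to which CDK9 belongs, held no call among 32 tested, with a median of 0.20. The mRNA of cdk9 was at 70.0, 143 and 110 CPM in wild type and 190, 170 and 98.6 CPM in the mutant, a log2 fold change of 0.50 (SE 0.58, 95% confidence interval -0.70 to 1.70, adjusted p = 0.917). The groups overlapped, and the interval spans from a fall to a rise of over 3-fold. Its cyclin partner gene ccnt1 was at 68.0, 103 and 82.7 CPM against 146, 195 and 69.8 CPM (log2 fold change 0.69, SE 0.55, adjusted p = 0.79). The bromodomain genes brd2a and brd3a, the most read of the list, were at 2580, 6130 and 4470 CPM against 8010, 8670 and 5000 CPM, and at 309, 856 and 820 CPM against 813, 959 and 543 CPM. These are amounts of mRNA in the pulled-out RNA and say nothing of where the protein sits.

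The genes known from the literature as targets of miR-430 were not called either. Of 8 listed, 5 were tested, with a median of -0.14 and none called. The mutant embryos had been injected with miR430, so this comparison cannot show how these genes respond to loss of the microRNA. The Nodal inhibitor gene lft2 was at 374, 1100 and 994 CPM in wild type and 615, 443 and 376 CPM in the mutant (log2 fold change -0.78, SE 0.82, adjusted p = 0.888), and the chemokine receptor gene ackr3b was at 1240, 1940 and 2220 CPM against 1370, 1480 and 2030 CPM. Among 28 genes of the microRNA pathway and mRNA decay the median was 0.06, with no call. Of that group, btg1, for an antiproliferative protein that recruits deadenylases, was at 1500, 986 and 1720 CPM against 1550, 957 and 3030 CPM. The 8 genes of the apelin and chemokine system, which guides migrating cells, had a median of -0.08 and no call. Its receptor gene aplnrb was at 8750, 2320 and 6500 CPM against 5850, 1100 and 10500 CPM, lowest in replicate 2 of both genotypes.

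The medians of stored maternal RNA depended on single libraries. The germ plasm list (determinants of the germ line) had a median of -1.51 over 8 members and the list of oocyte RNAs a median of -1.08 over 9. Without wild type replicate 1 these medians were 0.30 and 0.32. Leaving out any other single library kept the germ plasm median between -1.95 and -0.96. The oocyte median was also 0.28 over 15 tested without mutant replicate 2, and -0.04 over 14 without mutant replicate 1. The CPM of all 21 oocyte genes summed to 1507, 1699 and 1694 in wild type and 2411, 2018 and 1969 in the mutant. The organizer of the germ plasm, buc, was at 180 CPM in wild type replicate 1, 18.8 and 5.49 CPM in replicates 2 and 3, and 21.4, 7.69 and 17.4 CPM in the mutant. The piRNA pathway gene piwil2 was at 58.3 CPM in that replicate and between 0.732 and 6.32 CPM in the other 5 libraries, and the maternal cyclin gene ccna1 was at 70.9 CPM and between 1.46 and 12.2 CPM. The genes buc, piwil2 and ccna1 were chosen after their values were seen. Over all listed genes, the germ plasm sum was highest in that replicate, at 599.7 CPM, and the oocyte sum was lowest. Why these values stood apart there was not tested. The Tudor domain gene tdrd5, which acts in the piRNA pathway in mouse, was the called member, at 13.6, 6.70 and 9.15 CPM in wild type and 2.43, 0.366 and 0.423 CPM in the mutant (log2 fold change -3.09, SE 0.70, adjusted p = 0.0192). Its log2 fold change without wild type replicate 1 was -2.83, with an adjusted p of 0.0586.

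Markers of the extraembryonic layers had no called member. The enveloping layer, the outer epithelium, had a median of 0.61 over 14 genes. The transcription factor gene grhl3 was at 1560, 5800 and 5970 CPM in wild type and 4260, 5310 and 2580 CPM in the mutant. The yolk syncytial layer had a median of 0.92 over 8 genes, and its regulator mxtx2 was at 3160, 2120 and 3880 CPM against 2260, 1690 and 4740 CPM. The apolipoprotein gene apoba of that layer was at 96.2, 77.7 and 150 CPM against 302, 664 and 342 CPM (log2 fold change 2.01, SE 0.73, adjusted p = 0.259). For grhl3 and mxtx2 the genotypes overlapped. For apoba every mutant library was above every wild type library, as in 8.96% of all tested genes.

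Stress genes varied widely between the replicates of each genotype. The 19 genes of the p53 response summed to 13760, 5713 and 17570 CPM in wild type replicates 1 to 3 and to 11320, 3017 and 23500 CPM in the mutant. In both genotypes replicate 2 was the lowest and replicate 3 the highest. The 17 of them that were tested had a median log2 fold change of 0.15 and no call. The p53 target gene sesn1, for a sestrin, was at 2610, 790 and 3270 CPM against 1850, 198 and 4430 CPM, and the interferon-induced isg15 was at 642, 260 and 831 CPM against 780, 157 and 1560 CPM, in the same order of libraries in both genotypes. No member was called among 23 cell cycle genes (median 0.15), 16 immediate early genes (0.31), 10 interferon genes (-0.10) or 20 genes of heat shock and unfolded protein (-0.18). The cyclin D gene ccnd1 was at 1530, 3450 and 3320 CPM in wild type and 4340, 5960 and 2740 CPM in the mutant, and the small heat shock protein gene hspb1 at 295, 2450 and 2560 CPM against 1360, 2180 and 567 CPM. Both overlapped between the genotypes.

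Of the genes for the translation machinery, 89 for cytosolic ribosomal proteins had a median of 0.36 and no call. Of 53 for mitochondrial ribosomal proteins, 2 were called lower, beside 0.407% of all genes, with a median of -0.24. The gene mrps18a was at 60.3, 30.8 and 27.5 CPM in wild type and 7.78, 7.69 and 8.89 CPM in the mutant (log2 fold change -2.25, SE 0.52, adjusted p = 0.0224). The gene mrps27 was at 49.6, 27.1 and 39.5 CPM against 10.7, 4.76 and 5.50 CPM (log2 fold change -2.45, SE 0.62, adjusted p = 0.0463). Both encode proteins of the small mitochondrial subunit, and the groups did not overlap in either. Both calls were lost under most of the 13 alternative settings, 9 of them for mrps18a and 10 for mrps27. Without wild type replicate 1 the adjusted p was 0.0858 and 0.0935. Among 53 histone genes (median 0.38), whose copies share reads, none was called.

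**Figure D4:**
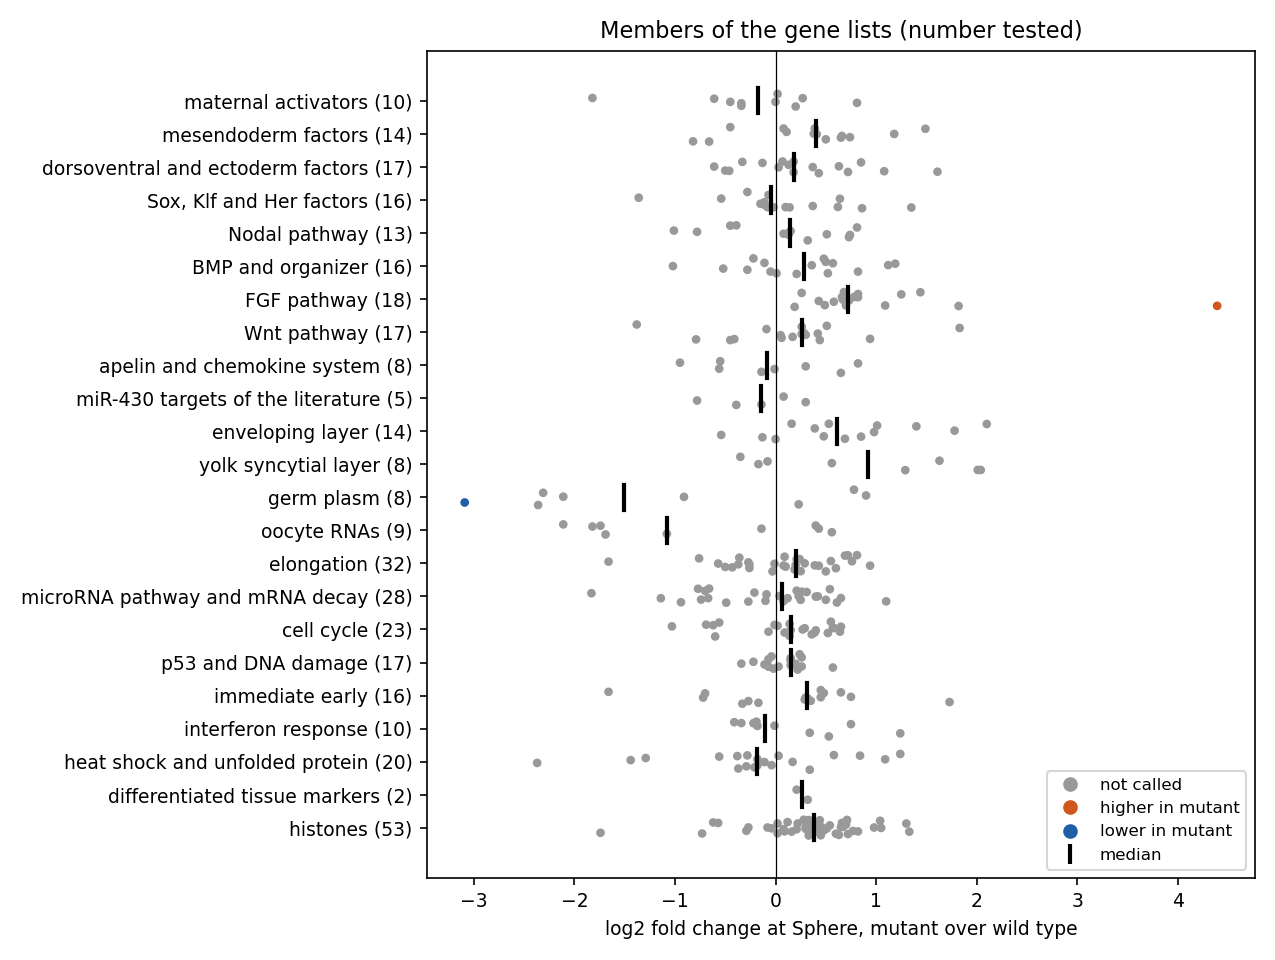
Log2 fold change of mutant over wild type at Sphere (x axis) of the tested members of 23 gene lists (y axis, number tested in brackets), 1 point per gene. Black bars mark the list medians and colours the called genes. The called points are fgfr1bl at 4.39 in the FGF list and tdrd5 at -3.09 in the germ plasm list. The mitochondrial ribosomal list, with its 2 called genes, is not drawn.

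The called genes were spread over most chromosomes. By count, chromosome 22 held 14 calls among 531 tested genes (2.64%) and chromosome 4 held 16 among 996 (1.61%), beside 0.806% over all genes, while chromosomes 10, 17, 19 and 25 held none. Chromosome 4 carries the mir430 array and, on its long arm, large families of zinc finger genes. Within 2 Mb of the array 0 of 42 tested genes were called, and within 10 Mb 4 of 190 (2.11%). Of 165 zinc finger (znf) genes on chromosome 4 and 140 elsewhere none was called, with medians of -0.05 and 0.05. In the fit without wild type replicate 1, znf1107 and znf988, 2 of 170 on chromosome 4, were called lower, beside 59 of all 13823 nuclear genes. The chromosome 4 znf median was then -0.52, and leaving out any other single library gave -0.44 to 0.25. With no filter on low counts 2 of 172 on chromosome 4 were called higher and 5 lower, beside 146 and 249 of 28346 nuclear genes. Without wild type replicate 1, chromosome 22 held 11 calls among 569 tested and chromosome 4 held 14 among 1083, 4 of them among 200 genes within 10 Mb of the array. In the fit of the 6 Sphere libraries alone, 2 genes of chromosome 4 were called. Of the 103 genes, 33 had another called gene within 1 Mb and 14 within 0.1 Mb. No such count was made for other tested genes, so whether called genes cluster was not tested. The 14 genes within 0.1 Mb formed 7 pairs, 4 of which moved in the same direction, among them trpc6b with pgr.

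At the earlier stages the same genes mostly had the same sign. These stages are measured in other libraries, so that they do not share samples with Sphere. All stages were fitted in 1 model that estimated the spread of each gene over all of them. Calls at different stages are therefore not independent. Of the 51 rises, all 51 were positive at Oblong, as 55.6% of all genes were, and 26 were called there, beside 0.454% of all genes called higher. At 1024c 48 were positive (all genes 50.3%) and 20 called (all genes 1.57%). At 256c 45 were positive (all genes 63.8%) and 16 called (all genes 9.46%). The medians of the 51 were 4.53, 4.75 and 4.15 at Oblong, 1024c and 256c. None of the 51 or of the 52 was called in the opposite direction at any of the 3 stages. Of the 50 rises called without wild type replicate 1, 28, 23 and 19 were called at Oblong, 1024c and 256c, and of the 59 falls 23, 13 and 2. In that fit 1 gene was called in the opposite direction at 1024c and 1 at 256c.

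Of the falls, all 52 were negative at Oblong (all genes 44%), where 20 were called (all genes 0.337%). At 1024c 46 were negative (all genes 48.8%) and 11 called (all genes 1.29%). At 256c 29 were negative (all genes 32.2%) and 6 called (all genes 1.93%). Their medians were -3.44, -3.01 and -0.20. Falls with a fitted change of 0 at 256c count as not negative. Among them hsc70, sycn.2, tmem176l.2 and sncga had 0 counts in both genotypes at 256c, so no effect could be read there. For rrad the log2 fold changes were -4.96 at Oblong (adjusted p = 0.00157), -4.15 at 1024c (adjusted p = 0.00687) and -0.72 at 256c (adjusted p = 0.792), where the wild type group had 4 counts. The purba rise was 4.43, 3.67 and 4.69 at these stages (adjusted p = 0.0105, 0.0379 and 0.00868).

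**Figure D5:**
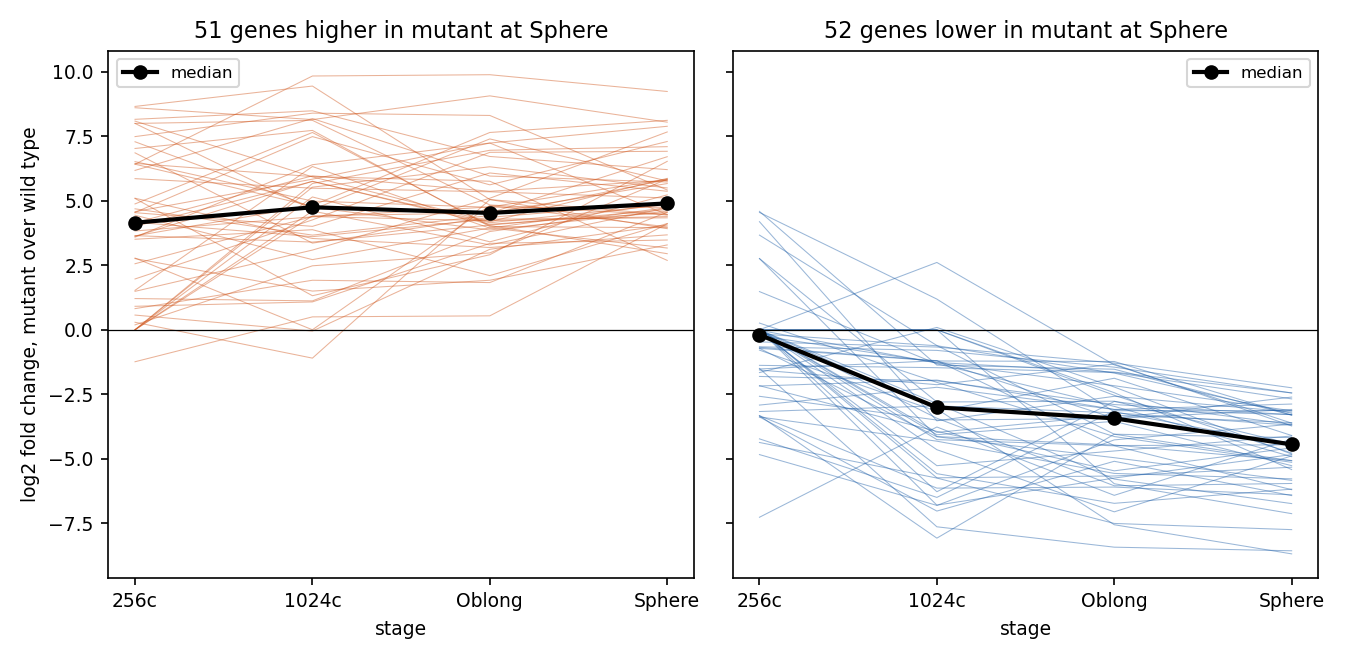
Log2 fold change of mutant over wild type (y axis) at the 4 stages (x axis) for the 51 genes called higher (left) and the 52 called lower (right) at Sphere, 1 line per gene. The black line joins the medians. Genes with 0 counts in both genotypes at a stage, such as hsc70 at 256c, stand at 0 there. The median of the rises is 4.15 at 256c and stays above that at each later stage, and the median of the falls goes from -0.20 at 256c to -3.44 at Oblong and lower at Sphere, where the values also chose the genes.

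Whether the genotype effect itself differed between stages was tested with an interaction term. Between Oblong and Sphere 0 genes (0%) were called by edgeR, with 99 at an unadjusted p under 0.05, and 0 by DESeq2, with 182. The median standard error of this difference was 1.04 on the log2 scale, so that modest differences were not detectable. Between 256c and Sphere 133 genes (1.04%) were called, 14 with a higher and 119 with a lower effect at Sphere. Over all nuclear genes tested the median of this difference was -0.87, so most genes had a lower fitted effect at Sphere. With TMM over all genes the split was 11 and 29. In place of 133 the count was 334 without wild type replicate 1 and 4 without wild type replicate 2. It was 0 without wild type replicate 3 or any 1 mutant Sphere replicate. Between the genotypes themselves, 101 genes (0.791%) were called at Oblong, 366 (2.86%) at 1024c and 1455 (11.4%) at 256c.

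The 5 named genes with the largest negative stage difference had no count in wild type at 256c. The ectoderm factor gene zic2b was at 0 in the 3 wild type libraries and 17.0, 150 and 240 CPM in the mutant at 256c, and at 1100, 2120 and 1830 CPM against 1820, 2540 and 1350 CPM at Sphere. The kinase gene mapk12b had 0 counts in wild type and 243 in the mutant at 256c, and was at 79.7, 196 and 264 CPM against 241, 279 and 160 CPM at Sphere. The genes nrd1b, for a peptidase, and mrps15, for a mitochondrial ribosomal protein, ran the other way, with 39 and 28 counts in wild type and 0 and 1 in the mutant at 256c. At Sphere nrd1b was at 24.3, 4.69 and 8.42 CPM against 3.89, 13.5 and 13.1 CPM, and mrps15 at 6.80, 9.38 and 9.52 CPM against 8.75, 8.42 and 11 CPM. In all 4 genes the genotypes overlapped at Sphere.

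A further 4 named genes were called between the genotypes at Sphere, were not called at 256c, and had a stage difference that passed the test. For trpc6b wild type was at 13.1, 13.8 and 16.7 CPM and the mutant at 2.43, 16.9 and 29.5 CPM at 256c, and the log2 effect at Sphere was higher by 5.65 (SE 1.34, adjusted p = 0.0418). For slc35f3b, a gene of a solute carrier family, the mutant was at 31.1, 49.0 and 22.4 CPM and wild type at 3.89, 0.670 and 1.83 CPM at Sphere, and its effect was higher than at 256c by 5.35 (SE 1.16, adjusted p = 0.0378). The effects on per1b and ptprea were lower at Sphere, by differences of -3.08 (SE 0.77, adjusted p = 0.0492) and -6.4 (SE 1.27, adjusted p = 0.0332). In wild type the trpc6b level was lower at Sphere than at 256c in all 3 libraries, whereas in the mutant it was higher in all 3.

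The authors' deposited table of comparisons lists 51 nuclear genes other than mir430 as up and 30 as down at Sphere, all with an adjusted p of at most 0.00981 and a log2 fold change of at least 2.07 in size. Of the genes up in the authors' deposited table, 40 (78.4%) were among the 51 rises, of which they were also 78.4%. Of those down in the authors' deposited table, 22 (73.3%) were among the 52 falls, which is 42.3% of the falls. No gene was called in opposite directions. Both sets of calls come from the same series and have different cutoffs, so their overlap is no independent check. The fold changes were also estimated differently. For sycn.2 the deposited log2 fold change was -1.51 against -6.74 here, while for hsc70 it was -8.69 in both.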

How the data were processed

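The deposited count table holds raw whole-number counts of reads per gene, per the file headers and the values, with every column name marked as filtered. The sources used here do not say what that filter removed. GRCz11 is the build named in the submitters' processing notes, along with Trimmomatic, HISAT, SAMtools, Picard, featureCounts and DESeq2 (no versions). A deposited table of the authors' own comparisons, with log2 fold changes and adjusted p-values, served only for comparison.

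One edgeR model (version 4.0.16, limma 3.58.1, R 4.3.3) held the 8 group means of the 24 IAA libraries, with 1 wild type library without IAA left out at Sphere. Library sizes were nuclear counts other than mir430, scaled by TMM. The filterByExpr filter on the 6 Sphere libraries kept 12857 of 32520 genes (12775 nuclear, not mir430). Tests were two-sided quasi-likelihood tests with Benjamini-Hochberg adjustment, called under 0.05. The standard error came from the quasi-F statistic. Folds against 0 counts used a floor of 3 counts over the group. With 1 to 3 counts the ratio has a 95% binomial interval, for counting error only.

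Members, lists and tests were chosen with earlier results of these data known. Named genes were, of called genes with a symbol, no overlap and at least 5 CPM in the higher group, the 12 with the largest rise and the 12 with the largest fall, the 4 of each with the highest CPM, called list members, members of a list from the 2 with the highest CPM, and 5 genes per direction for the stage differences. Genes named beyond this rule (apoba, ccnt1, cdk9, pou5f3, ccna1, buc, piwil2 and mpx) were chosen after their values were seen. Same-numbered wild type and mutant libraries at Sphere had deviations correlated at 0.06, 0.63 and -0.03, against -0.62 to 0.37 for other pairings. The numbers were not taken as pairs in the main fit. At Oblong the same-numbered values, 0.19, 0.21 and 0.12, were all above the highest other, -0.03, so a shared replicate structure is not excluded. Replicate pairs differed beyond sampling noise (chi-square per degree of freedom 17.7 to 57.3). DESeq2 (1.42.0), other scalings, no filter, fewer libraries and a replicate block were tried, and the procedure was tested on simulated data.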

Additional observations from a re-analysis of the deposited data

Results flagged for a closer look

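The genotype effect differed between 256c and Sphere for 133 genes by the interaction test. The fitted difference on the log2 scale, Sphere effect minus 256c effect, was -10.77 for znf1137, -10.07 for mapk12b, -9.99 for zic2b, -9.60 for mhc1zfa and -9.56 for znf1139. In these 5 genes the wild type group had 0 counts at 256c, so the fitted values depend on how 0 is treated and are no bounds. It was 8.23 for nrd1b and 7.87 for mrps6, which had 0 counts in the mutant at 256c, and 5.46 for mrps15, which had 1. It was 5.65 for trpc6b and 5.35 for slc35f3b, both read in each genotype at 256c, with few counts. There trpc6b had 13 counts in the wild type group and 25 in the mutant group, and slc35f3b had 15 and 10. Without wild type replicate 3 or any 1 of the mutant Sphere replicates none of these differences was called.

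A signal also appeared in data outside the comparison. In the wild type Sphere library without IAA, mir430 genes took 4.12% of nuclear counts (95% exact binomial interval 4.07 to 4.17, for counting error only), against at most 0.000323% in a mutant library.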

How the results depend on the processing

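Counts of higher and lower genes moved with the setting, while all 103 called genes that could be tested kept their sign. DESeq2 called 132 higher and 91 lower (50 and 46 of them shared) and 545 stage differences from 256c. TMM over all genes called 59 and 61, with 40 stage differences. No TMM factor called 54 and 56, and 2 list members in place of 4. These scalings moved the median of all genes to 0.15, 0.01 and -0.13, and the list medians of the maternal activators, the Sox, Klf and Her factors, the apelin, interferon and microRNA lists and the znf genes off chromosome 4 changed sign under at least 1 of them. With no filter there were 146 higher, 249 lower, 9 list members and 692 stage differences among more genes tested. The 6 Sphere libraries alone gave 14, 9 and 1, with 2 calls on chromosome 4 in place of 16. With replicate number as a replicate block there were 70 higher, 49 lower and 209 stage differences, and of the named calls mrps18a was lost (adjusted p = 0.0672). Only the Oblong and Sphere libraries, a setting chosen after seeing the data, gave 71, 45 and 1 list member. The mir430 difference was -1.50 percentage points as a share of all counts, against -3.35 of nuclear counts. Leaving out 1 library at a time gave 16 to 50 higher, 12 to 121 lower, 1 to 3 list members, 0 to 334 stage differences from 256c and 0 from Oblong, a mir430 difference of -3.91 to -2.41 and a nuclear share difference of -6.12 to 18.8 percentage points. Where a setting changed these values otherwise, the cause was not tested. Among the 6 Sphere libraries, depth limits wild type replicate 1 most, with 919807 nuclear counts. The libraries left out in turn were Sphere libraries only, so how far the stage differences rest on single 256c libraries was not tested.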

Other observations

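The wild type Sphere library without IAA, which entered no fit, held 611306 nuclear counts other than mir430. Its CPM was not scaled by TMM, unlike that of the mutant libraries. It was below all 3 mutant libraries for 51 of the 51 genes called higher, as 16.6% of all tested genes were. Of those 51 genes, 19 had 0 counts in this library, whose depth limits the comparison. It was above all 3 for 51 of the 52 called lower, as 50.3% of all tested genes were. The exception, CU481774.1, had 0 counts in it.

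Among the called genes with clone names, 8 have another symbol in a later table of gene names. Those given here were chosen from the 8 after their values were seen. A pair of U1 spliceosomal RNA genes on chromosome 4 moved in opposite directions: BX255935.2 (61202591 to 61202754) was at 3.89, 10.7 and 4.76 CPM in wild type and 99.7, 51.2 and 31.3 CPM in the mutant, a log2 fold change of 3.17 with an SE of 0.79 (adjusted p = 0.042). Its neighbour CABZ01004903.3 (61183594 to 61183742) was at 6.80, 14.1 and 25.6 CPM against 0.486, 1.1 and 0 CPM, a log2 fold change of -4.58 with an SE of 1.11 (adjusted p = 0.0347). Another called U1 gene, CU481774.1 on chromosome 22, was lower. It was at 3.89, 10 and 4.76 CPM in wild type and at 0 in the mutant (adjusted p = 0.0352). U1 genes are near-identical copies, and how the authors' counting split their reads is uncertain. The snoRNA gene SNORA62 (BX284638.1) was at 5.83, 6.03 and 17.2 CPM in wild type and at 0 in the mutant (adjusted p = 0.00635). The gene tmem269 (si:dkey-205h13.1), for a transmembrane protein, was at 2.92, 8.04 and 7.32 CPM against 47.6, 87.1 and 53.8 CPM (log2 fold change 3.29, SE 0.71, adjusted p = 0.0147).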
